A study of Mus musculus with 24 samples.

Results

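Mouse CD4 T cells lacking Batf and Batf3 were compared after 4 days of weak stimulation and before any stimulation. The comparison rests on 6 of the 24 arrays of the series, chosen by sample title: 3 of double knockout cells cultured for 4 days with 2.2 ng/ml of anti-CD3e, and 3 of naive double knockout cells at day 0. The double knockout is labelled Batf1/3DKO and is written DKO here, and wild type is written WT. All groups are on the 129SvEv background, and all began as naive CD4 T cells. Cultured cells received soluble anti-CD3e, an antibody that triggers the T cell receptor, and anti-CD28, which supplies costimulation, held together by plate-bound anti-hamster IgG, in medium that favours the TH2 fate. DKO cells at 2.2 ng/ml therefore differed from DKO cells at day 0 in stimulation, TH2 culture and 4 days of time, and these cannot be told apart. The other groups used are WT cells at 2.2 ng/ml for 4 days and at day 0, DKO cells after 2 days of TH2 culture, for which the labels give no anti-CD3e concentration, and DKO cells after 4 days at 10 ng/ml, with 3 arrays each. The labels do not say whether arrays of a group came from separate mice or cultures, and a p-value here speaks only of how far arrays of a group lie apart, part of which may be technical.

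BATF and BATF3 are basic leucine zipper factors of the AP-1 family that pair with JUN proteins and bind DNA together with IRF4 at composite elements near genes of activated lymphocytes. IRF4 itself is induced in proportion to the strength of T cell receptor signalling, and in mouse T cells BATF is needed for full effector differentiation, including that of TH2 and TH17 cells. The series asks how this pair of factors turns graded receptor signals into graded transcription. The DKO cells at the low dose were cultured with a weak signal while the BATF arm was missing.

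Values are array intensities normalized by the authors, and a level is comparable between arrays but not between genes. As a guide to dim signals, the median probe set had a mean of 30.2, and values below that are called dim. Fold changes come from limma on log2 intensities over 19938 genes with all 24 arrays in the fit, CI is the 95% confidence interval, log2 changes carry their standard error (SE), and adjusted p is Benjamini-Hochberg adjusted over all genes, with genes called below 0.05. Array medians lay between 26.4 and 31.6. The first principal component held 52.5% of the variance, and placed the DKO arrays at 2.2 ng/ml at -5.97, 3.41 and 6, against -70.8, -65.7 and -69.7 for DKO day 0 arrays. The DKO arrays at 2.2 ng/ml lay short of the DKO arrays at day 2 (20.7 to 24) and at 10 ng/ml (27.4 to 33.5) on this axis.

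The targeted gene was read first. Batf had 33.4, 26.7 and 36.5 in DKO cells at 2.2 ng/ml and 30.9, 28.2 and 34.5 in DKO cells at day 0, against 1424, 1451 and 1652 in WT cells at 2.2 ng/ml and 114, 156 and 134 in WT cells at day 0. Every DKO array lay below every WT array, as the labels require, and in DKO cells the difference between the states did not pass the test (log2 0.04 ± 0.15, adjusted p = 0.917). Batf3 read 21.6, 27.3 and 23.7 in DKO cells at 2.2 ng/ml and 27.2, 29.3 and 20.7 at day 0, and 33.7, 29.7 and 23.5 in WT cells at 2.2 ng/ml and 33.2, 27.8 and 30.2 at day 0, all between 20.7 and 33.7 and so close to the dim guide, and it could not check the label in these 4 groups. Irf4, the partner factor that remains intact, had 281, 418 and 352 at 2.2 ng/ml and 32.2, 26.4 and 37.1 at day 0 in DKO cells, without overlap. This was a rise of 10.9-fold (95% CI 8.05 to 14.9, adjusted p = 5.48e-12). WT cells had 338, 267 and 588 at 2.2 ng/ml and 38.1, 36.5 and 23.7 at day 0, and the response of Irf4 did not differ detectably between genotypes (log2 difference -0.10 ± 0.30, adjusted p = 0.963).

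The labels call the day 0 cells naive CD4 T cells and the cultured ones TH2 cells. All 6 defining CD4 T cell markers were above the dim guide in both DKO groups. Cd4, the coreceptor, was lower in DKO cells at 2.2 ng/ml (632, 576 and 582) than in DKO cells at day 0 (889, 874 and 1065), a 1.58-fold fall (adjusted p = 0.000624), and the receptor chain Cd3g fell 1.5-fold (adjusted p = 0.00264), while Cd3d, Cd3e, Cd2 and Thy1 did not pass. No rise of these TH2 cytokines was detected: Il4, the signature TH2 cytokine, was dim with 20.7, 16.1 and 16.4 at 2.2 ng/ml and 17.7, 20.2 and 16.4 at day 0, and Il13 and Il5 did not pass the test. Their responses did not differ detectably from those of WT cells, as given below. Transcripts of other cell types were low. Summed over the 6 measured B cell markers, levels ran from 117 to 130.0 at 2.2 ng/ml and from 100.6 to 101.1 at day 0, with 1 of 6 above the guide at 2.2 ng/ml and 0 of 6 at day 0. The 12 myeloid and dendritic cell markers summed to 492 to 564 at 2.2 ng/ml and 719.8 to 773 at day 0, with 3 and 4 above the guide, of which the protease Ctss made up 250.4, 287 and 314 and 512, 488 and 462. None of the 5 NK cell markers was above the guide in either group (sums 29.2 to 31.6 and 34.6 to 37.2). Of the granulocyte and mast cell markers, S100a8 was lower at 2.2 ng/ml (9.23, 9.53 and 9.94) than at day 0 (10.4, 41.3 and 36.3), where replicates 2 and 3 carried it, and the 9 summed to 109 to 131 at 2.2 ng/ml and 129 to 177 at day 0. The CD8 chain Cd8b1 was also lower (34.9, 29.1 and 43.7, against 52.3, 64.4 and 79.3 at day 0), and the 2 CD8 markers summed to 49.4 to 67.0 at 2.2 ng/ml and 75.1 to 97.9 at day 0. The erythroid gene Alas2, the 1 member of its list that was measured, had 26.7, 28.2 and 25.6 at 2.2 ng/ml and 31.5, 27.7 and 27.9 at day 0. The part of these cells in the results was not tested, and in bulk RNA fewer cells of a type and less RNA per cell cannot be told apart.

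Over all genes, 2320 were higher and 1651 lower in DKO cells at 2.2 ng/ml than in DKO cells at day 0, which is 11.6% and 8.28% of those tested and 19.9% in either direction. Changes of at least 2-fold were found for 830 higher and 378 lower genes, and changes of at least 4-fold for 233 and 63. The median log2 change over all genes was -0.03. Counts within gene lists for this comparison are to be read beside these shares, and were not tested against them. The balance of calls depended on the scaling, with 2025 higher and 2219 lower after quantile normalization, so counts of modest changes should be read against that split.

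The rises of greatest fold were those of Il2ra and Pros1, and many cell division genes followed. Il2ra, the inducible alpha chain of the interleukin-2 receptor, had 802, 977 and 913 at 2.2 ng/ml and 10.4, 10.5 and 13 at day 0. All day 0 arrays were dim and all cultured arrays bright, a rise of 79.5-fold (95% CI 58.9 to 107, adjusted p = 3.31e-17). Pros1, which encodes the secreted protein S, had 1288, 1290.3 and 1029 at 2.2 ng/ml and 22.9, 17.3 and 22.1 at day 0, again with dim day 0 arrays, and rose 58-fold (95% CI 45.8 to 73.5, adjusted p = 1.53e-18). Mitotic and histone genes made up most of the next rises. Mki67, the proliferation marker Ki-67, had 853, 893 and 864 at 2.2 ng/ml and 24.4, 21.3 and 19.1 at day 0, a rise of 40.5-fold (95% CI 32.9 to 49.8, adjusted p = 1.23e-18). The 3 cultured arrays differed little from each other, as did the 3 naive ones. The kinesin Kif11 (39.9-fold), the chromosomal passenger Birc5 (34.9-fold), topoisomerase Top2a (33.8-fold), the spindle checkpoint kinases Bub1 (31.3-fold) and Bub1b (26.5-fold), the linker histone H1f5 (32.4-fold), the core histone H2ac4 (25.5-fold) and the cell cycle gene Prr11 (24.4-fold) followed. Top2a had several probe sets that disagreed in size, and as their mean the log2 change was 3.30 in place of 5.08. All of the genes in this paragraph but H1f5 and Top2a averaged below the dim guide at day 0, where the scale is compressed and a fold may understate the change.

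Eomes was the 1 transcription factor among the 12 greatest rises. It encodes a T-box factor of CD8, memory and cytotoxic T cells. It had 619, 670.3 and 509 in DKO cells at 2.2 ng/ml and 17.5, 27.6 and 18.8 at day 0, so that every cultured array was far above every naive one, and it rose 28.5-fold (95% CI 18.6 to 43.8, adjusted p = 5.47e-12). The difference between its responses in DKO and WT cells did not pass (log2 1.31 ± 0.42, 95% CI 0.44 to 2.19, limma adjusted p = 0.165). The rise is therefore not shown to be particular to DKO cells.

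**Figure D1:**
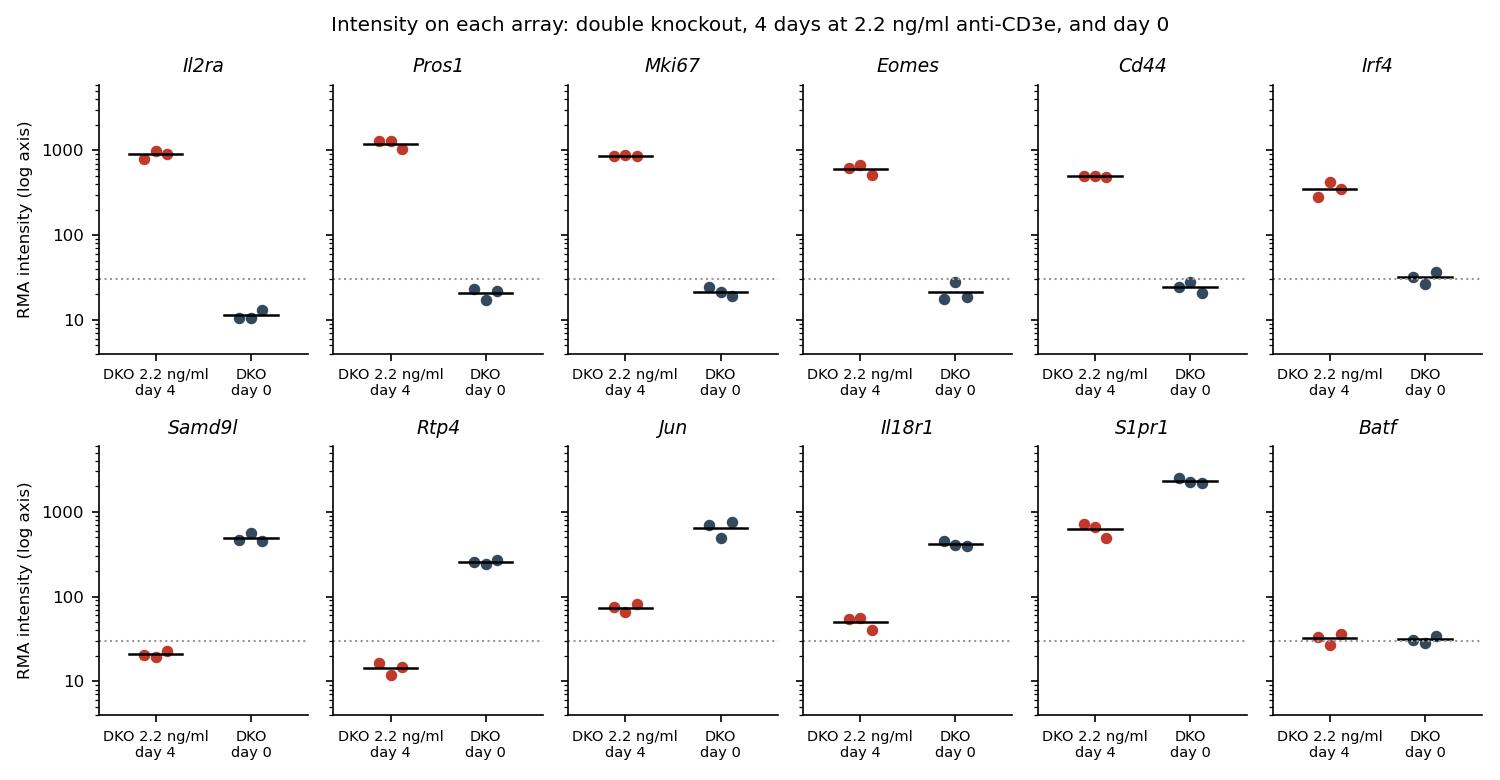
Intensity of 12 genes on each array of DKO cells at 2.2 ng/ml for 4 days (left in each panel) and DKO cells at day 0 (right), on log axes, with the line at the group mean and the dotted line at the dim guide of 30.2. The groups do not overlap for any gene shown except Batf, and Il2ra, Mki67 and Eomes lie below the guide at day 0 and above 500 at 2.2 ng/ml.

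All 16 measured genes of the mitosis list were higher in DKO cells at 2.2 ng/ml, with a median log2 change of 4.21, and all 22 of the DNA replication list, with a median of 1.88. Cenpf, a kinetochore protein, had 216, 239 and 230.3 at 2.2 ng/ml and 12.1, 10.7 and 14.2 at day 0, a rise of 18.6-fold. Among replication genes the rises were largest for the nucleotide supply enzymes: the ribonucleotide reductase subunits Rrm2 (487, 483 and 458, against 28.5, 23.6 and 30.7 at day 0, 17.3-fold) and Rrm1 (7.91-fold), and thymidylate synthase Tyms (10.8-fold). The helicase subunit Mcm6 had 609, 699 and 677 at 2.2 ng/ml and 91.2, 97.3 and 113 at day 0 and rose 6.61-fold, and the licensing factor Cdt1, with the smallest change of the list, 1.78-fold. Of 13 G1 regulators, 7 rose and 1 fell. The kinases Cdk6 (4-fold) and Cdk4 (2.54-fold) and the factor E2f1 (2.2-fold) rose together with the inhibitor Cdkn2c (7.58-fold), and the pocket protein Rbl2, a keeper of quiescence, fell 1.77-fold. The cyclins Ccnd1, Ccnd2 and Ccnd3 did not pass the test.

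Promoters of the mitosis list are shown because its members moved together. In the 250 bases before the start site, the letters CCAAT, on either strand, were present in 13 of the 15 mitosis genes with an entry (86.7%), against 38.8% of 15614 tested genes, and 9 of the 15 (60.0%) held it at least 2 times, against 12.8%. TTTGAA, the core of the cell cycle homology region (CHR) of late cell cycle promoters, was present on either strand in 6 of 15 (40.0%), against 15.7%. In the windows below, taken from RefSeq on GRCm38.p6 and printed 5′ to 3′ along the gene, capitals mark CCAAT and TTTGAA on either strand (ATTGG and TTCAAA are the reverse strand), and no marked run overlaps another. Both genes were picked for holding several copies. Top2a, at chr11:99024190-99024439 on the minus strand, holds 6 CCAAT and 2 TTTGAA. Mki67, at chr7:135716380-135716629 on the minus strand, holds 3 and 2. A match is a string of letters and not a measured binding site, and a link between the letters and the rises was not tested.
Top2a: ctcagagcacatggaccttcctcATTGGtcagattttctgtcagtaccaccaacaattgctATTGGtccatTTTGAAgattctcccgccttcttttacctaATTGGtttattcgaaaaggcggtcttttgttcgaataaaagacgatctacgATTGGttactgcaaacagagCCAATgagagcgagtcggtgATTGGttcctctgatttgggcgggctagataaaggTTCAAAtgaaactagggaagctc
Mki67: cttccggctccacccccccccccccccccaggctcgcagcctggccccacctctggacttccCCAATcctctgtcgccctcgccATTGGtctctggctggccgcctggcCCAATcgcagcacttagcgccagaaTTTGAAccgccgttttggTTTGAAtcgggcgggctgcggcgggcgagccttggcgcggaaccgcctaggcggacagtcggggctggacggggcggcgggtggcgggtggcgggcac
The E2F letters TTCCCGC, searched in the same way, were in 5 of 18 DNA replication promoters (27.8%), against 6.12% of all. They were also in 3 of 12 glycolysis promoters (25.0%) and in 0 of 15 mitosis promoters. A link of the E2F letters to the changes was likewise not tested.

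Metabolic programs moved far less than the cell cycle. In the glycolysis list 8 of 13 genes rose and 0 fell (median log2 0.57). Triose phosphate isomerase Tpi1 had 407, 510.2 and 619.8 at 2.2 ng/ml and 95.7, 76.6 and 58.5 at day 0, a rise of 6.69-fold (95% CI 5.11 to 8.76, adjusted p = 3.52e-11), and the groups did not overlap. Pgk1, which makes the first ATP of the pathway, had 1486, 1375 and 1555 at 2.2 ng/ml and 471, 444 and 450.4 at day 0 and rose 3.23-fold. Phosphoglycerate mutase Pgam1 (2.44-fold) and pyruvate kinase Pkm (2.19-fold) rose as well. The glucose transporters did not pass: Slc2a1 had 145, 200.5 and 246 at 2.2 ng/ml and 250.04, 255 and 189 at day 0, and Slc2a3 77.9, 77.1 and 82.5 and 79.99, 79.2 and 53, with overlap in both. The count of glycolysis rises fell to 5 without DKO replicate 3 at 2.2 ng/ml. Of 15 cholesterol synthesis genes 10 rose (median 0.55), among them the isomerase Idi1 (3.36-fold), the sterol demethylase Cyp51 (2.42-fold) and squalene epoxidase Sqle (2.53-fold), and Hmgcs1, an early enzyme, had 179.5, 198 and 199.9 at 2.2 ng/ml and 99.2, 116 and 89.6 at day 0. Of 19 amino acid and one-carbon genes 7 rose, including the serine enzymes Psat1 (3.06-fold) and Shmt2 (2.81-fold) and the amino acid transporter Slc7a5 (2.02-fold), and 1 fell, the glutamine transporter Slc38a2 (2.02-fold).

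Of 14 ribosome biogenesis genes 7 rose (median 0.51), with the nucleolar proteins Nop58 (2-fold) and Nop56 (1.76-fold) and the RNA methyltransferase Fbl (1.72-fold) among them. That count was 4 after cyclic loess, without DKO replicate 2 at 2.2 ng/ml and without DKO day 0 replicate 1. Of 14 chaperones 8 rose and 1 fell, and 5 and 3 after cyclic loess. Xbp1, a factor of the unfolded protein response, had 287, 352 and 342 at 2.2 ng/ml and 101, 88 and 131 at day 0 and rose 3.09-fold, whereas the co-chaperone Dnajb9 fell 5.5-fold (155, 72.3 and 126, against 576, 614 and 663 at day 0). Among BCL2 family genes 4 of 11 rose and 0 fell. The survival protein Bcl2l1 (157, 209.6 and 204 at 2.2 ng/ml, 44.5, 49.2 and 29.6 at day 0, 4.7-fold) and the killer protein Bcl2l11, also called Bim (425, 370.1 and 341, against 129, 125 and 216, 2.48-fold), rose side by side, and the smaller rises of Bak1 and Bad lost their calls without single arrays. Bak1 did so without DKO day 0 replicate 2 (log2 0.43, limma adjusted p = 0.0652), and Bad without DKO replicate 1 or 2 at 2.2 ng/ml or DKO day 0 replicate 1 (log2 0.40 to 0.45, limma adjusted p = 0.0507 to 0.0777).

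**Figure D2:**
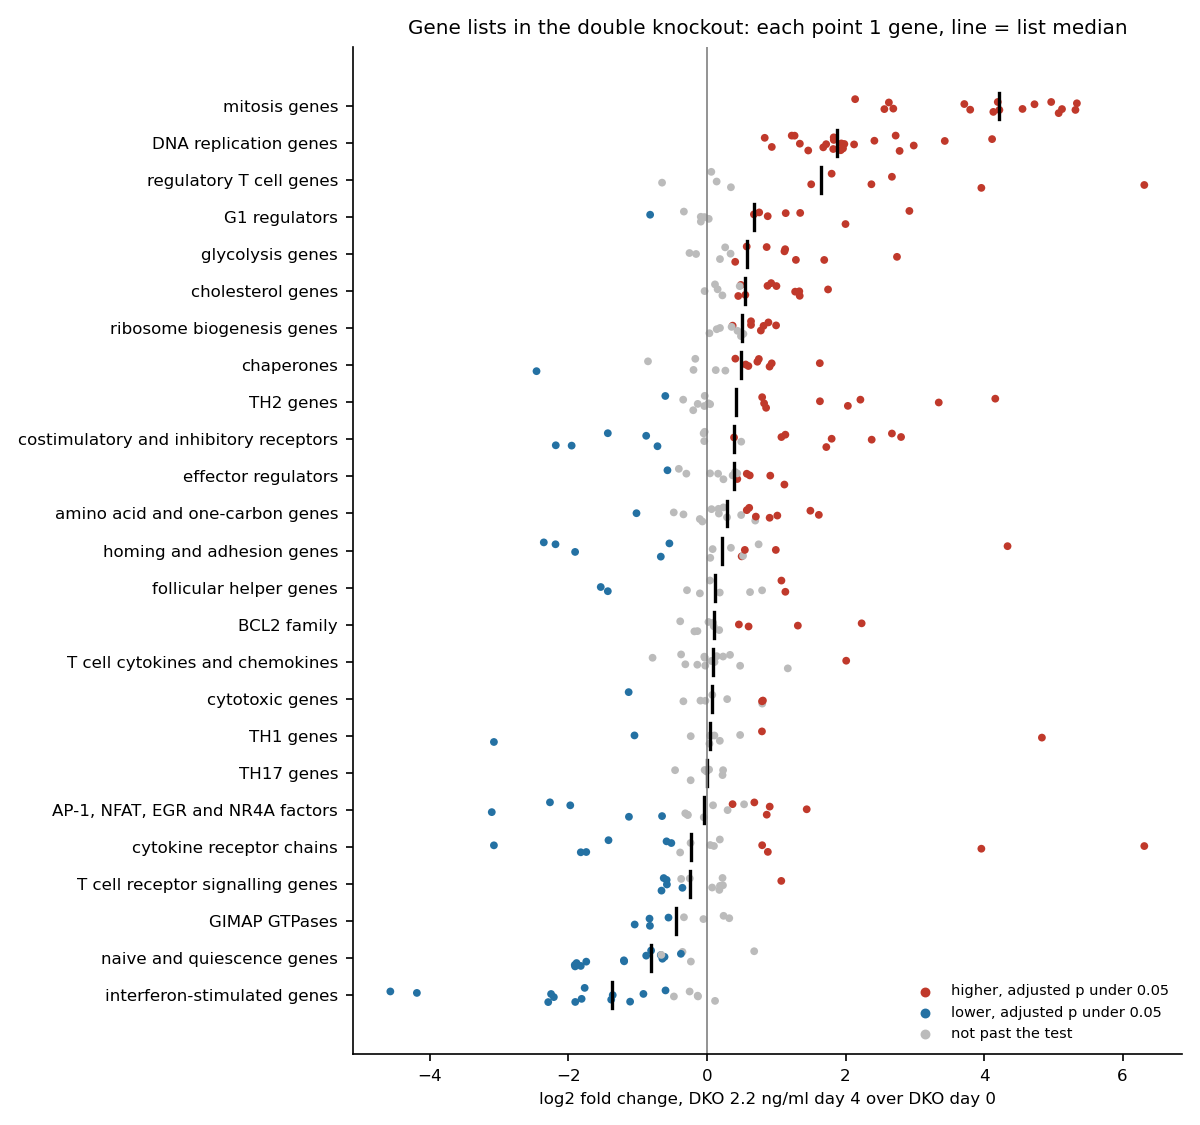
Log2 change in DKO cells at 2.2 ng/ml over DKO day 0 for each measured gene (points) of 25 lists, with the list median as a line. The mitosis list lies highest with a median of 4.21, and the interferon-stimulated list lowest with a median of -1.37.

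Interferon-induced genes had the steepest falls, Samd9l and Rtp4, and were 3 of the 12 genes with the greatest falls. Samd9l, an interferon-inducible antiviral gene, had 20.5, 19.4 and 22.5 at 2.2 ng/ml and 466, 571 and 452 at day 0, a fall of 23.8-fold (95% CI 17.6 to 32, adjusted p = 1.42e-14). Rtp4, another interferon-induced gene, had 16.3, 11.7 and 14.6 at 2.2 ng/ml and 255, 244 and 269.7 at day 0 and fell 18.2-fold (95% CI 13.2 to 25.1, adjusted p = 3.27e-13). All cultured arrays of both genes were dim and all naive arrays bright, where folds may understate the change. In the list of 18, 13 fell and 0 rose (median log2 -1.37). Irf7, the amplifier of interferon transcription, had 36.1, 30.9 and 24.7 at 2.2 ng/ml and 144, 144 and 155 at day 0 (4.89-fold lower), and the RNA sensor Ddx58 92.1, 108 and 113 and 478, 517 and 448 (4.63-fold lower). Mx1, Rsad2 and Oasl2 were dim in both groups and did not pass.

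Promoters of interferon-stimulated genes are shown for the same reason, since 13 fell together. The interferon-stimulated response element, searched as GAAA, 2 bases of any kind and GAAA again, on either strand and in the same 250 bases, was in 7 of 14 promoters of the list (50%), against 3.4% of all. Samd9l, Irf7 and Ddx58, which fell steeply, held 0 copies, and Rsad2, which did not pass, held 1. A link between the element and the falls was not tested. Ifit1 had 10.1, 9.46 and 13.7 at 2.2 ng/ml and 66.1, 43 and 49.5 at day 0, and Ifit3 26.7, 23.3 and 46 and 128, 93.9 and 124. Both encode proteins that block viral RNA translation, and they fell 4.76-fold and 3.73-fold. Their windows, both picked for holding the letters, lie at chr19:34640639-34640888 for Ifit1 and chr19:34583279-34583528 for Ifit3, both on the plus strand of GRCm38.p6 (RefSeq). Capitals mark the element, here as its reverse strand, 2 copies in each.
Ifit1: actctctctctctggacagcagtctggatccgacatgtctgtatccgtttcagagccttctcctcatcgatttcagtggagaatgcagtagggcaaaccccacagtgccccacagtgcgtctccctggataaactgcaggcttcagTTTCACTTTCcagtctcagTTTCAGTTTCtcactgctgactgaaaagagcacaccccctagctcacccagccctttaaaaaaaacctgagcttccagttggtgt
Ifit3: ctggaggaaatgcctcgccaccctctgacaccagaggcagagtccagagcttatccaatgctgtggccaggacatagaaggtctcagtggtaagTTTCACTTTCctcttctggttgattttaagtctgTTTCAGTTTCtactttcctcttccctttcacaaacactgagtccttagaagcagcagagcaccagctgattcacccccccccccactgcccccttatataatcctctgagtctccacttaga

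The other genes among the 12 greatest falls had varied functions. Atp8b4, a phospholipid flippase, fell 11.3-fold, Cd55, an inhibitor of complement, fell 10.7-fold, and Igfbp4, which binds insulin-like growth factors, fell 10.2-fold (69.9, 83.1 and 91.9 at 2.2 ng/ml, 899, 740.2 and 852 at day 0). The steroid-converting enzyme Hsd11b1 (9.24-fold), the interferon-inducible Ifi208 (8.73-fold), Xkrx (8.55-fold), Mctp2 (8.32-fold) and Rgs2, a brake on G protein signalling (7.54-fold), also fell. Il18r1, the interleukin-18 receptor chain, had 53.8, 56.2 and 40.6 at 2.2 ng/ml and 455, 404 and 399 at day 0 and fell 8.43-fold. Of the 12 steepest falls, each had groups without overlap, as the choice of genes required.

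The AP-1, NFAT, EGR and NR4A factors split, with 5 of 17 higher and 5 lower. Jun, the AP-1 subunit, had 75.4, 66.2 and 80.8 at 2.2 ng/ml and 698, 486 and 758 at day 0 and fell 8.61-fold (95% CI 6.47 to 11.5, adjusted p = 1.09e-11). Fos (39.5, 38.6 and 45.9, against 136, 169 and 339 at day 0) fell 4.81-fold, Fosb 3.93-fold and Junb 2.18-fold. The receptor-induced nuclear receptor Nr4a3 had 100.3, 186 and 214 at 2.2 ng/ml and 53.8, 55.1 and 67.3 at day 0 and rose 2.71-fold, with replicate 1 the lowest of the cultured arrays, and Nr4a1, Atf3, Egr3 and Nfatc1 rose too. The count of higher genes was 3 without DKO replicate 2 or 3 at 2.2 ng/ml and without DKO day 0 replicate 2 or 3.

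Naive and quiescence genes fell in 13 of 17 cases, with 0 higher (median log2 -0.81). Btg2, an antiproliferative factor, had 242, 186 and 187 at 2.2 ng/ml and 687, 835 and 774 at day 0, a fall of 3.75-fold (95% CI 2.95 to 4.78, adjusted p = 4.05e-09). S1pr1, the receptor that lets T cells leave lymph nodes, had 716, 669 and 493 at 2.2 ng/ml and 2482, 2275 and 2187 at day 0 and fell 3.74-fold, the interleukin-6 receptor chain Il6ra fell 3.53-fold, and the interleukin-7 receptor Il7r fell 3.34-fold. These genes fell without reaching dim levels. The lymph node homing receptor Ccr7 kept 1066, 809 and 656 at 2.2 ng/ml, against 1320.2, 1431 and 1196 at day 0 (1.59-fold lower), and Klf3 and Foxp1 did not pass. Of 8 GIMAP GTPases, lymphocyte survival proteins, 4 fell and 0 rose, Gimap3 by 2.06-fold.

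Homing genes went both ways, 4 of 14 higher and 5 lower. The higher count was 3 after cyclic loess or quantile normalization and without DKO replicate 2 or 3 at 2.2 ng/ml or day 0 replicate 2 of DKO cells, and 6 with DKO day 0 replicate 3 left out. Of those called higher, the integrin chain Itgal and the chemotactic receptor Gpr183 were not called after cyclic loess. Cd44, the hyaluronan receptor used to mark activated and memory T cells, had 497, 505 and 479.6 at 2.2 ng/ml and 24.7, 28 and 21 at day 0, a rise of 20.2-fold (95% CI 16.4 to 25, adjusted p = 6.93e-17). The 3 cultured arrays lay within a narrow range and every naive array was dim. The integrins Itga4 (135, 145 and 130.2, against 676, 673 and 749.5 at day 0) and Itgb7 fell 5.12-fold and 4.55-fold, and their dimer is the gut homing receptor of lymphocytes, while the beta chain Itgb1 rose 1.99-fold.

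Costimulatory and inhibitory receptors were higher in 8 of 17 cases and lower in 5. Lag3, an inhibitory receptor, had 178, 199.9 and 176 at 2.2 ng/ml and 34.3, 20.2 and 26.6 at day 0 and rose 6.97-fold (95% CI 5.39 to 9.02, adjusted p = 1.02e-11). Tnfrsf4 (OX40) had 293, 470.5 and 419.9 at 2.2 ng/ml and 83, 80.4 and 61.7 at day 0 and rose 5.2-fold, Tnfrsf18 (GITR) rose 3.48-fold and Tnfrsf9 (4-1BB) 3.3-fold. The members that fell were the naive marker Cd27 (1.84-fold), the receptor dampener Cd5 (1.64-fold), Btla (2.7-fold), the early activation marker Cd69 (4.54-fold, 71.6, 124 and 165 against 520.05, 455 and 581 at day 0) and the helper ligand Cd40lg (3.87-fold). Of 15 cytokine receptor chains 4 rose and 6 fell. Il2rb, the beta chain that completes the high affinity interleukin-2 receptor, had 1449.8, 1257 and 1284 at 2.2 ng/ml and 72.8, 79.6 and 107 at day 0 and rose 15.6-fold, with Il4ra (1.74-fold) and Ifngr2 (1.84-fold) the others that rose beside Il2ra, described above. Among T cell receptor signalling genes 5 of 13 fell, including the adaptor Lat (1.49-fold) and the kinase Fyn (1.54-fold), and the adaptor Trat1 rose 2.1-fold.

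Among TH2 genes 8 of 16 rose and 1 fell (median log2 0.42), and these were receptors and regulators, not cytokines. Nfil3, a basic leucine zipper factor induced by cytokines, had 300.3, 322 and 409 at 2.2 ng/ml and 29.5, 14.3 and 16.4 at day 0, a rise of 17.9-fold (95% CI 13.6 to 23.6, adjusted p = 2.15e-14). The chemokine receptors Ccr4 (189, 194 and 217, against 15.9, 22.9 and 20.9 at day 0) and Ccr8 (64.2, 40.7 and 34.5, against 9.83, 8.7 and 10.5 at day 0) rose 10.2-fold and 4.64-fold. Gata3, the factor that specifies TH2 cells, had 496, 551 and 501 at 2.2 ng/ml and 275, 279 and 303 at day 0 and rose 1.81-fold (95% CI 1.5 to 2.17, adjusted p = 1.61e-05). Epas1, an oxygen-regulated factor, rose 4.09-fold, and Stat6, which carries the interleukin-4 signal, was the member that fell, by 1.52-fold. Of 16 cytokine and chemokine genes 1 rose, the interleukin-6 family member Lif, with 51, 82.3 and 96.9 at 2.2 ng/ml and 17.7, 19.5 and 18 at day 0 (4.03-fold). Il2 had 15.1, 35.7 and 34.3 at 2.2 ng/ml and 12, 12.1 and 11.3 at day 0 and did not pass (adjusted p = 0.0722). It passed without replicate 1 at 2.2 ng/ml, the lowest of the 3. It also passed in 4 other settings that left out no array of either group (limma adjusted p = 0.00889 to 0.0479), the lowest p with the compared groups alone.

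Some members of lists of other helper fates changed, beside 11.6% of all genes called higher and 8.28% lower. Whether the small counts below exceed those shares was not tested. Of 10 regulatory T cell genes 6 rose and 0 fell (median log2 1.65), among them Il2ra and Il2rb, which activated cells of any helper type express. Foxp3, the defining factor of regulatory T cells, had 263, 238 and 209.96 at 2.2 ng/ml and 83.3, 88.8 and 77.7 at day 0, a rise of 2.84-fold (95% CI 2.33 to 3.45, adjusted p = 6.53e-09) with every cultured array above every naive one. Ctla4, an inhibitory receptor (6.36-fold), and Lrrc32, which displays latent TGF-beta (5.18-fold), rose as well, while Ikzf2, Nrp1 and Gpr83 did not pass. In the TH1 list of 11, Eomes and the interleukin-12 signal transducer Stat4 (1.73-fold) rose and Il18r1 and Runx3 (2.07-fold) fell. Tbx21, the defining TH1 factor, stayed dim (26.8, 26.5 and 28.9 at 2.2 ng/ml, 26, 27.2 and 23.2 at day 0). Of 7 TH17 genes 0 passed in limma and 1 had an unadjusted p under 0.05, the receptor-type factor Ahr (adjusted p = 0.0596), which passed in 4 of the other settings tried. Of 10 follicular helper genes Icos (2.19-fold) and Pdcd1 (2.11-fold) rose and Btla and Slamf6 (2.89-fold) fell. Of 9 cytotoxic genes Fasl rose 1.74-fold and perforin, Prf1, fell 2.19-fold, while Nkg7, called at 1.75-fold, was not called without DKO replicate 3 at 2.2 ng/ml or DKO day 0 replicate 1. Of 14 effector regulators 5 rose, or 3 after cyclic loess, and 1, the lymphoid zinc finger factor Ikzf1, fell 1.48-fold. Bhlhe40, a factor of effector cytokine control, had 32.9, 37.9 and 51.2 at 2.2 ng/ml and 18.9, 15.6 and 21.2 at day 0 (2.17-fold), Ikzf4 rose 1.88-fold and the NF-kappaB subunit Rel 1.53-fold.

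The same stimulation of WT cells called more genes, 3205 higher and 2607 lower (16.1% and 13.1%), than the 2320 and 1651 of DKO cells. No array is shared between these comparisons. Of the 3971 genes called in DKO cells, 3233 were also called in WT cells, which is 81.4% of the DKO calls and 55.6% of the 5812 WT calls. The direction of change was shared by 3214 of these and opposite for 19. The test of the difference between responses called 69 genes with a higher and 226 with a lower response in DKO cells (0.346% and 1.13% of those tested), and the median log2 difference over all genes was 0.01.

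Most cell cycle genes showed no detectable difference in response. Of 22 DNA replication genes 0 and of 16 mitosis genes 1 were called with a lower response in DKO cells, and the median log2 differences were -0.34 and -0.33. Most members of both lists lay on the lower side. The unadjusted limma p was under 0.05 for 4 replication and 6 mitosis genes, all with a lower response in DKO cells. The exception in these 2 lists was Top2a (-0.75 ± 0.17). It was not called as the mean of its probe sets (-0.07, limma adjusted p = 0.965). Nor was it called without DKO day 0 replicate 2 (-0.70), WT replicate 3 at 2.2 ng/ml (-0.71) or WT day 0 replicate 2 (-0.68). Calls were also gained without single arrays. The kinetochore motor Cenpe passed without WT day 0 replicate 3 (-0.80, limma adjusted p = 0.0118), after quantile normalization and with the filter on dim genes. The helicase subunit Mcm6 passed without WT replicate 2 at 2.2 ng/ml or WT day 0 replicate 1 (-0.86 and -0.94), and the primase subunit Prim1 without WT replicate 2 at 2.2 ng/ml (-1.09). Kif11 had 485, 515 and 514 in DKO cells and 544, 569 and 572 in WT cells at 2.2 ng/ml, and its responses did not differ detectably (log2 -0.21 ± 0.16, adjusted p = 0.719). The same held for Il2ra (log2 -0.53 ± 0.30, adjusted p = 0.584). Of the cell division genes among the greatest rises, H2ac4 (-1.34 ± 0.34, limma adjusted p = 0.0427) and Prr11 (-1.11 ± 0.24, limma adjusted p = 0.0143) also responded less in DKO cells. How far these 2 calls rest on single arrays was not tested. Mki67, Birc5, Bub1, Bub1b and H1f5 did not pass. For Kif11 the 95% interval of the difference ran from -0.54 to 0.11, and a p above the threshold does not show that responses were alike.

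Glycolysis was the list with the most reduced responses. Of its 13 genes 11 responded less in DKO cells and 0 more, with a median log2 difference of -1.10. That count was 7 without WT day 0 replicate 3, and 7 when the fit held the 4 compared groups alone. Pgk1 had 1486, 1375 and 1555 in DKO cells and 2484, 2616 and 2878 in WT cells at 2.2 ng/ml, and 471, 444 and 450.4 in DKO cells and 389.6, 399 and 325 in WT cells at day 0 (log2 difference -1.15 ± 0.15, adjusted p = 5.95e-05). The glucose transporter Slc2a3 had 77.9, 77.1 and 82.5 in DKO cells and 357, 322 and 332 in WT cells at 2.2 ng/ml, where no array overlapped, and 58.5, 76 and 67.6 in WT cells at day 0 (-2.14 ± 0.34, adjusted p = 0.000492). Of 15 cholesterol genes 4 responded less, but the count was 1 without DKO replicate 1 at 2.2 ng/ml or DKO day 0 replicate 2, 2 without DKO replicate 2 at 2.2 ng/ml, DKO day 0 replicate 1, WT replicates 1 or 3 at 2.2 ng/ml or WT day 0 replicates 1 or 3, and 1 with the compared groups alone. Hmgcs1 differed by -1.02 ± 0.19 (adjusted p = 0.00275).

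TH2 and effector genes responded less in DKO cells as well. Of 16 TH2 genes 8 had a lower response and 0 a higher one, with a median log2 difference of -0.98. Il10, an anti-inflammatory cytokine, had 8.51, 10.1 and 7.63 in DKO cells and 472, 264 and 546 in WT cells at 2.2 ng/ml, and 7.6, 9.78 and 7.99 in DKO cells and 7.56, 6.76 and 7.28 in WT cells at day 0. It was dim in every DKO array, and the difference in response was -5.78 ± 0.37 (adjusted p = 5.9e-10). Epas1 had 151, 101 and 121 in DKO cells and 1365, 1693 and 883 in WT cells at 2.2 ng/ml (-3.28 ± 0.31). Ccr4 (-1.31 ± 0.19), Ccr8 (-1.64 ± 0.27), Nfil3 (-1.61 ± 0.27) and Gata3 (-0.98 ± 0.18) rose in both genotypes and by less in DKO cells. For the cytokines Il4 (-0.735 ± 0.499), Il13 (-0.58 ± 0.485) and Il5 (0.135 ± 0.337) the difference did not pass (limma adjusted p = 0.683, 0.773 and 0.953). The AP-1 letters TGANTCA were in 3 of 12 TH2 promoters (25.0%) and 4 of 14 interferon-stimulated promoters (28.6%), against 7.12% of all, in the same 250 bases and on either strand. Enhancers were not examined, and a link of these letters to the responses was not tested.

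Genes of other lists also responded less in DKO cells than in WT cells. Lif reached 51, 82.3 and 96.9 in DKO cells and 1377, 1224 and 1888 in WT cells at 2.2 ng/ml, a difference in response of -4.20 ± 0.35 (adjusted p = 8.84e-08). Cd24a, a surface sialoprotein, had 9.18, 37.1 and 17.5 in DKO cells and 1202, 1201 and 1481 in WT cells at 2.2 ng/ml (-5.60 ± 0.51), and the early response gene Ier3 14.3, 37.4 and 19.6 and 555, 383 and 467 (-4.36 ± 0.48). At that dose no DKO array of either gene came near a WT array. Cyp11a1, the first enzyme of steroid synthesis, differed by -3.74 ± 0.24, the neuropeptide gene Nts by -4.39 ± 0.68, the protease Gzmb by -3.56 ± 0.38 and the protease inhibitor Ctla2a by -3.19 ± 0.34. For Nts the WT arrays at 2.2 ng/ml spread widely (237, 66.6 and 526), and the difference was -5.20 without WT replicate 2 and -3.71 without WT replicate 3. Among regulators, Prdm1, encoding Blimp-1, had 15, 16.5 and 13.3 in DKO cells and 88.9, 63.3 and 69.5 in WT cells at 2.2 ng/ml (-2.31 ± 0.27), and Hif1a, which drives the hypoxia program, 359, 398 and 361 and 662, 748 and 821 (-1.29 ± 0.16). The inhibitory receptor Ctla4 rose in both and differed by -2.33 ± 0.37. The interleukin-12 receptor chain Il12rb1 (-1.38 ± 0.19), Icos (-1.11 ± 0.18) and Il2rb (-1.20 ± 0.20) responded less in DKO cells too. Runx3 fell in DKO cells, and its change there lay below that in WT cells (-1.28 ± 0.19), which is not a weaker rise.

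**Figure D3:**
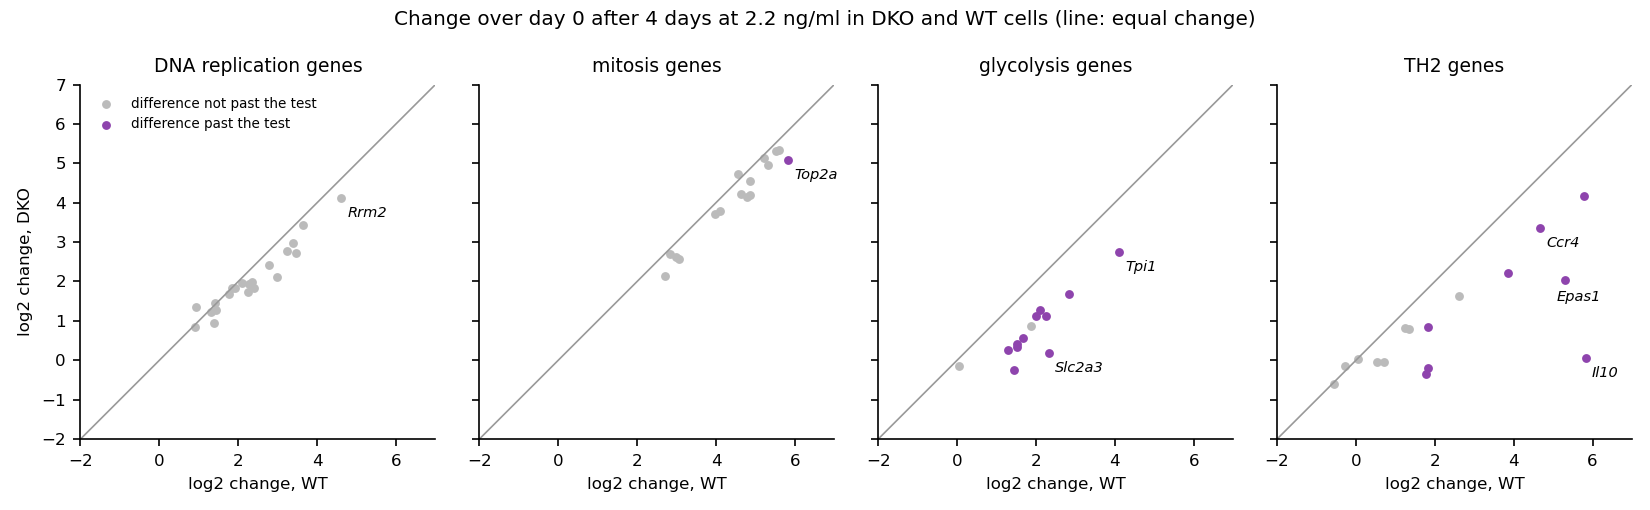
Log2 change at 2.2 ng/ml over day 0 in DKO cells (vertical) against WT cells (horizontal) for genes of the DNA replication, mitosis, glycolysis and TH2 lists, with the diagonal marking equal change and purple marking genes whose difference between genotypes passed the test. DNA replication and mitosis genes lie near the diagonal, most of them below it, and 11 glycolysis and 8 TH2 genes lie below it in purple.

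A smaller set responded more in DKO cells. Cd44 had 497, 505 and 479.6 in DKO cells and 122, 142 and 153 in WT cells at 2.2 ng/ml, and 24.7, 28 and 21 in DKO cells and 30.8, 27.8 and 26.3 in WT cells at day 0. It rose in both genotypes, and by 2.05 ± 0.21 more on the log2 scale in DKO cells (adjusted p = 1.74e-06). Foxp3 had 263, 238 and 209.96 in DKO cells and 62.1, 82.1 and 53.5 in WT cells at 2.2 ng/ml, and 83.3, 88.8 and 77.7 and 70.1, 76.1 and 68.4 at day 0 (1.65 ± 0.19, adjusted p = 8.91e-06), and in WT cells its change did not pass (adjusted p = 0.499). Arhgap20, a GTPase-activating protein, had 195, 301 and 230.4 in DKO cells and 40.1, 49.999 and 34 in WT cells at 2.2 ng/ml (2.35 ± 0.29), and Ankrd55 164, 144 and 88.9 and 23.5, 36.4 and 25.1 (2.38 ± 0.34). Every DKO array at 2.2 ng/ml lay above every WT array at that dose for these 4 genes. Nod1, a sensor of bacterial peptidoglycan, and Ccr9, a gut homing chemokine receptor, fell in WT cells and did not pass in DKO cells, with differences of 2.27 ± 0.39 and 2.09 ± 0.30. The killer protein Bcl2l11 responded more in DKO cells (1.25 ± 0.26, adjusted p = 0.0093) and Bak1, a pore-forming killer protein, less (-1.07 ± 0.22, adjusted p = 0.00814). Klf3, a factor of quiescence, fell in WT cells and did not pass in DKO cells (1.05 ± 0.21).

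The DKO state at the low dose was set against DKO cells at day 2 and at 10 ng/ml. Both comparisons share the 3 arrays at 2.2 ng/ml with the one against day 0, so their values are given side by side and no overlap is counted. Against DKO day 2, 746 genes were higher and 484 lower at 2.2 ng/ml (3.74% and 2.43%, 6.17% in either direction). These counts leaned on single arrays, with 428 and 136 without replicate 1 at 2.2 ng/ml, 455 and 293 without its replicate 2, 447 and 225 without day 2 replicate 2, and 431 and 211 without day 2 replicate 3. At 10 ng/ml, 891 genes were higher and 734 lower than at 2.2 ng/ml in DKO cells (4.47% and 3.68%, 8.15% in either direction), and 577 and 481 without replicate 1 at 2.2 ng/ml, 721 and 483 without its replicate 2, and 675 and 466 without replicate 3 at 10 ng/ml.

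Among the DKO groups, Eomes was highest at the low dose. DKO cells had 17.5, 27.6 and 18.8 at day 0, 77.6, 71.3 and 146 at day 2, 619, 670.3 and 509 at 2.2 ng/ml for 4 days and 62.1, 38.2 and 40.2 at 10 ng/ml for 4 days. Every array at 2.2 ng/ml lay above every array of the other DKO groups, by 6.39-fold over day 2 (adjusted p = 7.36e-06), and Eomes was 13-fold lower at 10 ng/ml (adjusted p = 9.04e-09). Foxp3 was also highest at 2.2 ng/ml, with 83.3, 88.8 and 77.7 at day 0, 63.2, 66.6 and 62.4 at day 2, 263, 238 and 209.96 at 2.2 ng/ml and 49.2, 51.7 and 47.3 at 10 ng/ml. Unlike Eomes, it lay at day 2 and at 10 ng/ml below every day 0 array. At 2.2 ng/ml it was 3.68-fold higher than at day 2, and it was 4.78-fold lower at 10 ng/ml. Arhgap20 had 19.5, 21.8 and 20.6, then 77, 42.7 and 45, 195, 301 and 230.4 and 21.1, 18.3 and 21.7 in the same order, and Cygb, which encodes the oxygen-binding cytoglobin, 34.9, 29.4 and 43.2, 51.2, 49.8 and 43.6, 286, 178 and 171 and 48.4, 32.2 and 46.8. For both, all arrays at 2.2 ng/ml were above all other DKO arrays.

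A second group had at 2.2 ng/ml levels near or part of the way to those of naive cells, and low levels at day 2 and 10 ng/ml. Ms4a4b, a membrane protein of naive T cells, had 658, 753 and 740.04 at day 0, 142, 97.9 and 149 at day 2, 644, 689 and 701 at 2.2 ng/ml and 53.7, 26.5 and 37.8 at 10 ng/ml. It did not differ detectably between 2.2 ng/ml and day 0 (log2 -0.08 ± 0.31, adjusted p = 0.917), and was 5.31-fold higher than at day 2. S1pr1 had 2482, 2275 and 2187 at day 0, 207, 179.5 and 223 at day 2, 716, 669 and 493 at 2.2 ng/ml and 160.1, 70.3 and 113 at 10 ng/ml, 3.06-fold higher at 2.2 ng/ml than at day 2 (adjusted p = 0.00065). The acid-sensing receptor Gpr65 had 37.3, 40.9 and 26.6 at 10 ng/ml and 420.2, 411 and 331 at 2.2 ng/ml, a 11.2-fold lower level at 10 ng/ml. Across lists, 5 of 18 interferon-stimulated genes, 9 of 17 naive genes and 6 of 8 GIMAP genes were higher at 2.2 ng/ml than at day 2, and 0 of these were lower. The naive count was 5 without replicate 1 at 2.2 ng/ml or day 2 replicate 2 and 4 without replicate 2 at 2.2 ng/ml or day 2 replicate 3, and the GIMAP count was 3 without replicate 1 or 2 at 2.2 ng/ml. Cd27 was 2.24-fold and Btg2 2.31-fold higher.

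Glycolysis genes ran the other way, and other growth programs did so in part. Against day 2, 10 of 13 glycolysis genes were lower at 2.2 ng/ml and 0 higher, and never fewer than 7 were lower without any 1 array. Smaller counts of lower genes rested on single arrays. They were 6 of 15 for cholesterol, 6 of 22 for DNA replication, 6 of 19 for amino acid and 5 of 14 for ribosome biogenesis genes, and without replicate 1 at 2.2 ng/ml they were 3, 0, 1 and 0. The DNA replication count was 1 without day 2 replicate 3, and the ribosome biogenesis count 0 without day 2 replicate 2. At 10 ng/ml, 12 of 13 glycolysis, all 15 cholesterol and 13 of 19 amino acid genes were higher than at 2.2 ng/ml, with median log2 differences of 1.48, 1.39 and 0.92, against -0.01 over all genes. Mitosis genes were lower than at day 2 in 2 of 16 cases (0 without day 2 replicate 3, and 1 without replicate 1 or 2 at 2.2 ng/ml or day 2 replicate 1 or 2). They were higher at 10 ng/ml in 7 of 16 cases, or 4 without replicate 1 at 10 ng/ml or replicate 1 or 2 at 2.2 ng/ml. Of 22 DNA replication genes 2 were higher at 10 ng/ml than at 2.2 ng/ml, 0 without replicate 1 of either dose and 1 without replicate 2 of either dose or replicate 3 at 10 ng/ml. Of 14 ribosome biogenesis genes 0 passed between doses in limma in either direction, 1 had an unadjusted p under 0.05, and the median log2 difference was -0.19. Pgk1 had 471, 444 and 450.4 at day 0, 2415, 2392 and 2407 at day 2, 1486, 1375 and 1555 at 2.2 ng/ml and 3331, 3419 and 4068 at 10 ng/ml. Scd1, the stearoyl-CoA desaturase that makes unsaturated fatty acids, had 936, 1306 and 989 at 10 ng/ml and 10.3, 9.08 and 9.04 at 2.2 ng/ml, a log2 difference of 6.82 ± 0.42 (adjusted p = 1.19e-10). The desaturase Fads2 (4.45 ± 0.30), the aldolase Aldoc (3.84 ± 0.31), the oxygen sensor Egln3 (3.57 ± 0.22), the neuritin gene Nrn1 (3.46 ± 0.34) and the casein gene Csn2 (4.30 ± 0.31) were also far higher at 10 ng/ml. For Csn2, replicate 1 at 2.2 ng/ml was low (23.3, 82.5 and 78.4), and the difference was 3.70 without it.

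Several effector genes were lower at 2.2 ng/ml than in both other stimulated states. Ccr8 had 9.83, 8.7 and 10.5 at day 0, 166, 174 and 144 at day 2, 64.2, 40.7 and 34.5 at 2.2 ng/ml and 182, 206 and 159.8 at 10 ng/ml, and was 3.59-fold lower at 2.2 ng/ml than at day 2 (adjusted p = 3.28e-06). Lif had 17.7, 19.5 and 18, 358, 314 and 444, 51, 82.3 and 96.9 and 187, 359 and 307 in that order, lowest of the stimulated states at 2.2 ng/ml. Bhlhe40 had 18.9, 15.6 and 21.2, 95.1, 104 and 81.1, 32.9, 37.9 and 51.2 and 327, 403 and 408, and Irf4 32.2, 26.4 and 37.1, 805, 664 and 652, 281, 418 and 352 and 878, 971 and 838. For all 4 genes every array at 2.2 ng/ml lay above every day 0 array and below every array of day 2 and 10 ng/ml. The retinoic acid carrier Crabp2 was 7.27-fold lower than at day 2, the mitochondrial adenylate kinase Ak4 5.11-fold and the nucleoside diphosphate kinase Nme4 3.39-fold. Cd44 did not follow this order, with 24.7, 28 and 21 at day 0, 351, 229 and 212 at day 2, 497, 505 and 479.6 at 2.2 ng/ml and 324, 375 and 323 at 10 ng/ml, where the low dose arrays were the highest.

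**Figure D4:**
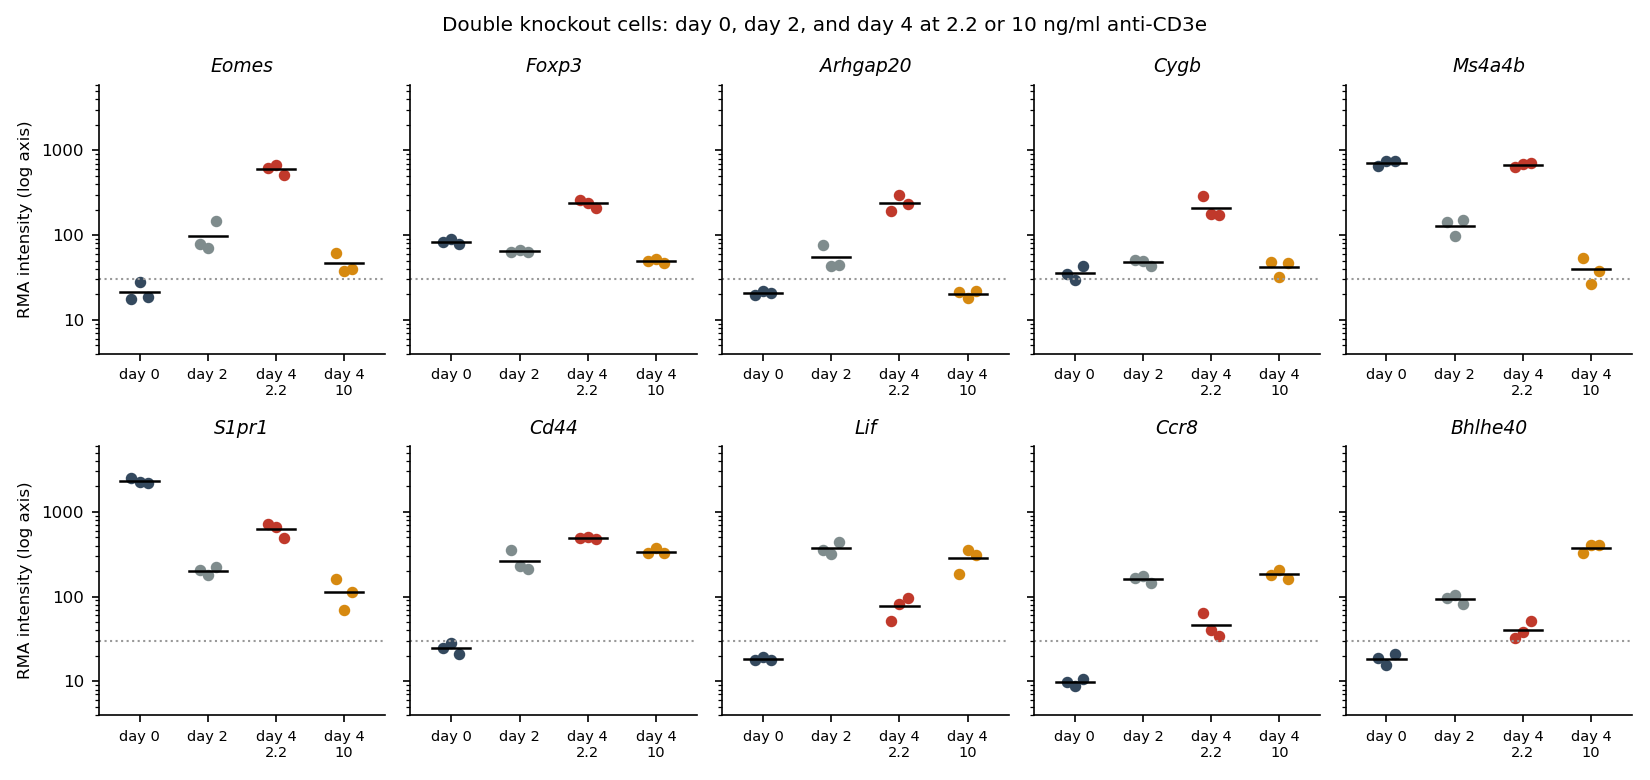
Intensity of 10 genes on each DKO array, from left to right naive cells, the day 2 culture and the low and high anti-CD3e doses at day 4, on log axes, with the line at the group mean and the dotted line at the dim guide of 30.2. Eomes, Foxp3, Arhgap20, Cygb and Cd44 are highest at 2.2 ng/ml, whereas Lif, Ccr8 and Bhlhe40 are lower at 2.2 ng/ml than at day 2 and 10 ng/ml.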

How the data were processed

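RNA of 24 mouse CD4 T cell samples was measured on Affymetrix gene arrays. The authors deposited linear intensities made by RMA, which corrects background, normalizes arrays to a shared distribution and summarises probes, per the submitters' processing notes, and the software version is not given in the sources used here. A shared distribution can hide a change in total RNA, so differences are relative. Log2 was taken. Of 35556 probe sets, 21789 had 1 gene symbol, 1621 several and 12146 none. Each of 19938 genes was represented by 1 probe set, for 999 genes the one with the highest mean over all arrays. One mean per group (8 groups of 3 arrays, taken from sample labels) was fitted with limma 3.58.1 in R 4.3.3 (16 residual and 7.49 prior degrees of freedom), without covariates, and 5 contrasts were tested, with Benjamini-Hochberg adjustment over all genes in each. The 3 arrays per group limit the precision.

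Members and gene lists (33 lists, 367 of 395 genes measured) were chosen with earlier results of these data known. Genes were named by rule: Batf, Batf3 and Irf4, the 12 greatest rises and falls whose arrays do not overlap, up to 4 genes per list by p with any called gene against its list's majority, and for other contrasts the 6 greatest differences each way and up to 2 genes per list. Other genes named were chosen with their values known. Promoters came from a RefSeq table on GRCm38.p6. On simulated data for DKO cells at 2.2 ng/ml over day 0, the fit recovered 24 of 50 genes given a log2 change of 0.5, 49 of 50 at 1, 50 of 50 at 2 and 50 of 50 at 3, and 17 of its 190 calls fell on unchanged genes. Only 50 genes were changed at each size, with independent normal noise, whereas 3971 genes were called in the data. Recovery in the data may therefore differ from these rates. Alternatives were a filter on dim genes, averaged probe sets, all named probe sets, cyclic loess, quantile normalization, the compared groups alone, a replicate block, robust eBayes with a trend in variance, weighting of arrays and leaving out each array.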

Additional observations from a re-analysis of the deposited data

Results flagged for a closer look

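For 40 of the genes named by rule for the difference between responses, the log2 response to 2.2 ng/ml for 4 days differed between DKO and WT cells. The test was that of the difference itself, given here as the DKO minus the WT response. Other genes of the report also passed this test, among them Ccr4 (-1.31), Ccr8 (-1.64), Nfil3 (-1.61) and Gata3 (-0.98). Higher responses in DKO cells were found for Ankrd55 (2.38), Arhgap20 (2.35), Nod1 (2.27), Ccr9 (2.09), Cd44 (2.05), Csn2 (1.95), Foxp3 (1.65), Nr4a3 (1.45), Bcl2l11 (1.25), Klf3 (1.05) and Ccr7 (0.98). The call of Nr4a3 was lost without DKO replicate 2 or 3 at 2.2 ng/ml, DKO day 0 replicate 1 or 2, WT replicate 1 at 2.2 ng/ml or WT day 0 replicate 2 (1.18 to 1.40). That of Csn2 was lost without DKO replicate 2 or 3 at 2.2 ng/ml, DKO day 0 replicate 2 or WT day 0 replicate 3 (1.64 to 1.86), and its value was 2.55 without DKO replicate 1 at 2.2 ng/ml. That of Ccr7 was lost without any of 9 of the 12 arrays, all but DKO replicate 3 and WT replicate 1 at 2.2 ng/ml and WT day 0 replicate 3 (0.80 to 1.04).

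Lower responses in DKO cells among cytokines and surface or secreted proteins were found for Il10 (-5.78), Cd24a (-5.60), Nts (-4.39), Lif (-4.20), Il21 (-1.74), Ctla4 (-2.33), Icos (-1.11), Il12rb1 (-1.38) and Il2rb (-1.20). The early response gene Ier3 (-4.36), the steroid enzyme Cyp11a1 (-3.74), the protease Gzmb (-3.56) and the protease inhibitor Ctla2a (-3.19) belonged here too. Among transcription factors the differences were -3.45 for Batf, the deleted gene, -3.28 for Epas1, -2.31 for Prdm1, -1.29 for Hif1a, -1.28 for Runx3 and -0.87 for Nfatc2. Runx3 fell in DKO cells, so its value is not a weaker rise.

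Metabolic and other genes with a lower response were Slc2a3 (-2.14), Pdia6 (-1.17), Pgk1 (-1.15), Samd9l (-1.15), Asns (-1.08), Bak1 (-1.07), Hmgcs1 (-1.02), Mthfd2 (-0.93), Cyp51 (-0.87) and Top2a (-0.75). Samd9l fell further in DKO cells than in WT cells. Its call was lost without any of 10 of the 12 arrays, all but WT replicate 3 at 2.2 ng/ml and WT day 0 replicate 2 (-0.98 to -1.21). It was also lost in 4 other settings that left out no array of the compared groups (-1.08 to -1.15, limma adjusted p = 0.0548 to 0.071). Asns, Mthfd2 and Cyp51 lost their calls without WT day 0 replicate 3 (-0.82, -0.77 and -0.72), WT replicate 3 at 2.2 ng/ml (-1.004, -0.87 and -0.78), DKO replicate 1 at 2.2 ng/ml (-0.93, -0.91 and -0.83) or DKO day 0 replicate 2 (-0.99, -0.88 and -0.82). Asns and Cyp51 did so without DKO day 0 replicate 3, Asns and Mthfd2 without DKO replicate 2 or WT replicate 1 at 2.2 ng/ml, and Mthfd2 without WT day 0 replicate 1. Top2a was not called without DKO day 0 replicate 2, WT replicate 3 at 2.2 ng/ml or WT day 0 replicate 2 (-0.68 to -0.71), and Nfatc2, of the factors above, was at -0.76 without WT day 0 replicate 3 and not called. With the 4 compared groups alone in the fit, 10 of the 40 genes were not called (Nr4a3, Csn2, Ccr7, Nfatc2, Samd9l, Asns, Mthfd2, Cyp51, Pdia6 and Top2a, limma adjusted p = 0.0561 to 0.152).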

How the results depend on the processing

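No gene named by rule that was called in the main fit or in an alternative changed sign between them. In the fit of all named probe sets each gene was read from its main probe set, so no sign could change there. At 2.2 ng/ml over day 0 in DKO cells, 2 genes had probe sets called in opposite directions. Changes of sign in genes called in neither were not counted. Of the genes named by rule, 115 of 126 kept their side of the threshold under every alternative in DKO cells at 2.2 ng/ml over day 0, 41 of 57 in the difference between genotypes, 43 of 60 against day 2 and 50 of 60 between doses. Leaving out each array in turn gave 1915 to 2262 higher and 1245 to 1521 lower genes at 2.2 ng/ml over day 0 in DKO cells, 2697 to 3235 and 1885 to 2504 in WT cells, 48 to 91 and 167 to 258 for the difference between responses, 428 to 867 and 136 to 434 against day 2, and 577 to 806 and 466 to 647 for 10 ng/ml over 2.2 ng/ml, in part because fewer samples were fitted. Pairing by replicate number was not seen, though 3 arrays per group are too few to exclude it. Between DKO cells at 2.2 ng/ml and day 0 same-numbered arrays correlated at 0.076, 0.045 and -0.056 in their deviations, and 1 of 3 correlated best with its own number. With the replicate block the counts were 2323 and 1665 in DKO cells, 67 and 236 for the difference between responses, 796 and 511 against day 2 and 905 and 736 between doses. The block ended the call of Samd9l in the difference between responses (adjusted p = 0.067), gained those of Ahr (0.0491) and Il2 (0.035) against day 0 and of Nfatc2 (0.0264) and Rbl2 (0.0444) against day 2, and changed no other call of a gene named by rule. Dim signals limit what can be seen: Batf3, Il4, Il10 in DKO cells and Tbx21 lie near or below the guide of 30.2, where a change may not show.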
